A study of Mus musculus with 48 samples.

Results

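Splicing factor genes were followed in Ba/F3, an established mouse pro-B cell line that depends on interleukin 3, across a panel of ribosomal protein mutants. The genes were those whose symbol in the deposited table starts with Snrp, Sf3a, Sf3b, Srsf, Prpf or U2af and does not carry the suffix of a pseudogene. This rule gave 48 of the 55487 genes in the table: 12 Snrp, 9 Sf3, 3 U2af, 13 Prpf and 11 Srsf genes. The rule reads symbols and no measured value, but it was set with earlier results of these data known. The panel held 8 genotypes with 3 clones each, made by CRISPR-Cas9 editing: WT, Rpl5+/-, Rpl11+/-, Rpl22+/- and Rpl22-/- for loss of 1 or both copies of a large-subunit protein, Rpl10 R98S/R98S, Rps15 P131S/P131S and Rps15 H137Y/H137Y for point mutations on both alleles. Each clone gave a poly(A) RNA-seq library and a library of ribosome-protected footprints of 28 to 30 nt from the same lysate, 48 libraries in all. All clones grew in 10% serum with 1 ng/ml of interleukin 3 and received cycloheximide, which halts elongating ribosomes, at 0.1 mg/ml for 1 min. A clone grows from 1 edited cell of 1 line, so p-values measure the spread between clones of that line, and all 7 mutants were set against the same 3 WT clones.

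Introns are removed by the spliceosome, which is assembled on each intron from small nuclear ribonucleoprotein particles, or snRNPs. The Snrp genes encode the Sm proteins that form a ring around the snRNAs and the particle-specific proteins of the U1 and U2 snRNPs. The U2AF proteins recognise the end of the intron and recruit the U2 snRNP, whose SF3A and SF3B complexes hold the branch site. The Prpf genes encode factors named after yeast pre-mRNA processing mutants, many of them parts of the U4/U6.U5 tri-snRNP. SR proteins, encoded by the Srsf genes, bind exons and promote the use of nearby splice sites. Transcripts of SR proteins carry conserved cassette exons whose inclusion sends the mRNA to nonsense-mediated decay, through which SR proteins are known to limit their own amounts. SF3B1 is a recurrently mutated gene in chronic lymphocytic leukaemia, and SF3B1, SRSF2, U2AF1 and PRPF40B are mutated in myelodysplastic syndromes.

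Promoter sequences of 4 members are shown, picked after the values were seen because both assays are given clone by clone for them below: Srsf2, Srsf3 and Srsf7, whose footprints rose in both Rps15 mutants, and Prpf40b, whose footprints fell in both. Each is the 120 bases before a start site listed in the RefSeq promoter table of GRCm38.p6, which need not be the outer end of the gene. The stretches of Srsf2 and Prpf40b lie inside the RefSeq gene spans (chr11:116849897-116853675 and chr15:99295076-99317018). That of Srsf7 overlaps the end of its gene span (chr17:80200080-80207369), and only that of Srsf3 lies wholly before its gene. Capitals mark 3 motifs where they occur on either strand. The TATA box was searched as TATAAA with its reverse complement TTTATA. The CCAAT box was searched as CCAAT with its reverse complement ATTGG. The ETS core was searched as CCGGAA with its reverse complement TTCCGG. The Srsf2 stretch is chr11:116853095-116853214 on the minus strand, that of Srsf3 is chr17:29032540-29032659 on the plus strand, that of Srsf7 is chr17:80207306-80207425 on the minus strand, and that of Prpf40b, at the first of 2 listed start sites, is chr15:99295121-99295240 on the plus strand.
Srsf2: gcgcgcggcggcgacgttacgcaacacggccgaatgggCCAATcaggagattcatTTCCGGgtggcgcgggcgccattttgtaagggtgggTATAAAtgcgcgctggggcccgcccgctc
Srsf3: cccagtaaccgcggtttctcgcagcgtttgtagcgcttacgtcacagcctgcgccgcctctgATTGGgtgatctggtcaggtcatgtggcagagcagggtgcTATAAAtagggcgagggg
Srsf7: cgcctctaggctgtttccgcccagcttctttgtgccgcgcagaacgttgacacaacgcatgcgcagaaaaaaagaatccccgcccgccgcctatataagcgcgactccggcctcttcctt
Prpf40b: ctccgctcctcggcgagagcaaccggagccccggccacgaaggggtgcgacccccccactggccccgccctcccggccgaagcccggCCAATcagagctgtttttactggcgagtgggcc
Srsf2 held all 3 motifs, Srsf3 held TATAAA and the reverse of CCAAT, and Prpf40b held CCAAT. None of these exact letters was in the stretch of Srsf7. It reads tatataag near its start site, a near match to TATAAA that the exact search did not count. A promoter entry existed for 41 of the 48 members, 39 of them tested at the RNA level. Over 250 upstream bases and both strands, CCGGAA, the core of ETS factor sites, was in 23 of these 39 (59%) and in 27% of the 9344 tested genes with an entry. TATAAA was in 4 members (10.3%, against 7.69%), CCAAT in 15 (38.5%, against 41.2%) and GGGCGG, with CCGCCC on the other strand, in 25 (64.1%, against 62.4%). These matches are descriptions of letters and were searched after the values were seen.

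Levels below are in CPM, which sets each count against the scaled total of its library. RNA libraries held 13029073 to 38258559 counts and footprint libraries 15598994 to 72044439. Members took 0.723 to 1.00% of the RNA counts and 0.996 to 1.24% of the footprint counts. The edited genes had RNA at 67.2% of WT in Rpl5+/-, 64.1% in Rpl11+/-, 72% in Rpl22+/- and 66.7% in Rpl22-/-; gene counts do not read the point mutations. Rpl22 footprints were at 2350 to 2786 CPM in WT and 1429 to 1596 in Rpl22+/-, and at 274 and 317 in Rpl22-/- clones 649 and 776, but at 1544 in the clone labelled Rpl22-/- 30, within the Rpl22+/- range. Results for Rpl22-/- are therefore given with and without clone 30. Rps15 RNA was split between clones of 1 genotype: 907, 1825 and 1935 CPM in P131S clones 24, 63 and 20 and 1829, 875 and 817 in H137Y clones 16, 2 and 6, against 1433 to 1455 in WT, and the part of this split in the changes below was not tested. Ptprc and the interleukin 3 receptor genes Il3ra and Csf2rb were expressed in every library, while the progenitor genes Kit and Cd34 were at 0 and at most 0.029 CPM of RNA, the B lineage genes Pax5, Ebf1 and Rag1 were at or near 0 and Cd79b was at 3.34 to 9.91 CPM of RNA. A list of 8 neutrophil genes, of which Camp and Elane stayed near 0, summed to 565 to 3520 CPM of RNA in Rps15 P131S and 631 to 4070 in H137Y, against 44.8 to 196 in WT. In footprints this sum was 993 to 7610 in P131S, 1500 to 11300 in H137Y and 64.2 to 381 in WT. Rpl5+/- clones also lay above WT, at 204 to 506 CPM of RNA and 435 to 1110 of footprints. Rpl10 R98S clones were at 28.4 to 31 and 28.3 to 38.2, and those of Rpl11+/-, Rpl22+/- and Rpl22-/- overlapped WT. The sum was thus high in the libraries of the 2 Rps15 genotypes, though not in these alone, and its part in the changes below was not tested. In such bulk samples fewer cells of a type and less RNA per cell cannot be told apart.

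A change is a log2 difference between 3 mutant and 3 WT clones, and a gene is called at an adjusted p under 0.05 from edgeR's quasi-likelihood test with Benjamini-Hochberg adjustment over all genes tested. Without gene lengths, CPM levels are compared between clones and not between genes. Where clones are not named, CPM values and ratios are in the order 1, 2 and 3 for WT and 22, 406 and 414 for Rpl11+/-. The order is 30, 649 and 776 for Rpl22-/- and A29, A30 and A34 for Rpl10 R98S. It is 20, 24 and 63 for P131S and 16, 2 and 6 for H137Y. Each comparison was refitted 6 times with 1 of its 6 clones left out (leave-one-out fits). Shares of all genes called in these fits are not given, so a lower member count there cannot be told from fewer calls over all genes. The low-count filter passed 46 members. The other 2 are Snrpn, which encodes the SmB paralog SmN of neurons, and Srsf12. Neither had an RNA count in any clone, and in footprints neither exceeded 0.0373 CPM.

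Splicing factor RNA was higher in Rps15 P131S. Of the 46 members tested, 27 rose and 2 fell, where 23.7% of all 12814 tested genes rose and 23.4% fell (47% in either direction). The member median was 0.26 on the log2 scale, beside -0.01 over all genes, and 37 of 46 members had a positive value. Rps15 H137Y showed no such excess: 10 members rose and 8 fell, beside 21% and 20% of all genes (41% together), with a median of 0.07 and 27 positive values. The direct test of P131S against H137Y called 18 members, all higher in P131S, where 12.6% of all genes were higher and 12.6% lower (25.2%), and 40 of 46 members had a positive value. That comparison depends on which libraries enter the fit. With only the 2 Rps15 genotypes fitted, so that their own clones alone set the spread, edgeR called no member at the adjusted threshold and 3.13% of all genes. Over all 24 RNA libraries DESeq2 and limma voom each called 20 members, all higher in P131S, beside 26.7% and 25.5% of all genes. With only WT and 1 mutant fitted, edgeR called 27 members higher and 3 lower in P131S RNA, beside 43.5% of all genes. In H137Y RNA it called 10 higher and 5 lower, beside 34.8%. These fits ended the P131S RNA calls of Srsf1, Srsf7 and Srsf10 and the H137Y RNA calls of Snrpc, Snrpd1, Snrpe, Sf3b2 and Srsf6. They also ended the footprint calls of Snrpa, Snrpc, Sf3a1, Sf3a2, Sf3a3, Prpf4, Srsf11 and U2af2 in P131S and of Prpf3, Sf3b3, Srsf3 and U2af1l4 in H137Y.

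Fewer members were called in the other genotypes. In Rpl10 R98S 7 members rose and 1 fell, where 6.82% of all genes rose and 6.03% fell (12.9%). In Rpl11+/- 5 rose and none fell, where 5.73% rose and 6.05% fell (11.8%). This count was 2 with only the 2 genotypes fitted, beside 7.12% of all genes. No member was called by edgeR in Rpl5+/- (1.04% of all genes), Rpl22+/- (3.9%) or Rpl22-/- (5.27%). At an unadjusted p under 0.05 were 10, 6 and 9 of the 46 members, beside 1897, 1982 and 2312 of all 12814 genes. DESeq2 called 0, 2 and 0 members in these 3 genotypes (3.02%, 5.53% and 7.05% of all genes) and limma voom none. The Rpl22-/- count was also 0 without clone 30. These counts depend on which libraries enter the fit. With only the 2 genotypes fitted, Rpl5+/- gave 17 higher members and 1 lower, beside 15.8% of all genes. Rpl10 R98S then gave 18 higher and 3 lower (35.4% of all genes), Rpl22-/- gave 4 and 2 (12%) and Rpl22+/- gave 5 and none (10.5%).

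**Figure D1:**
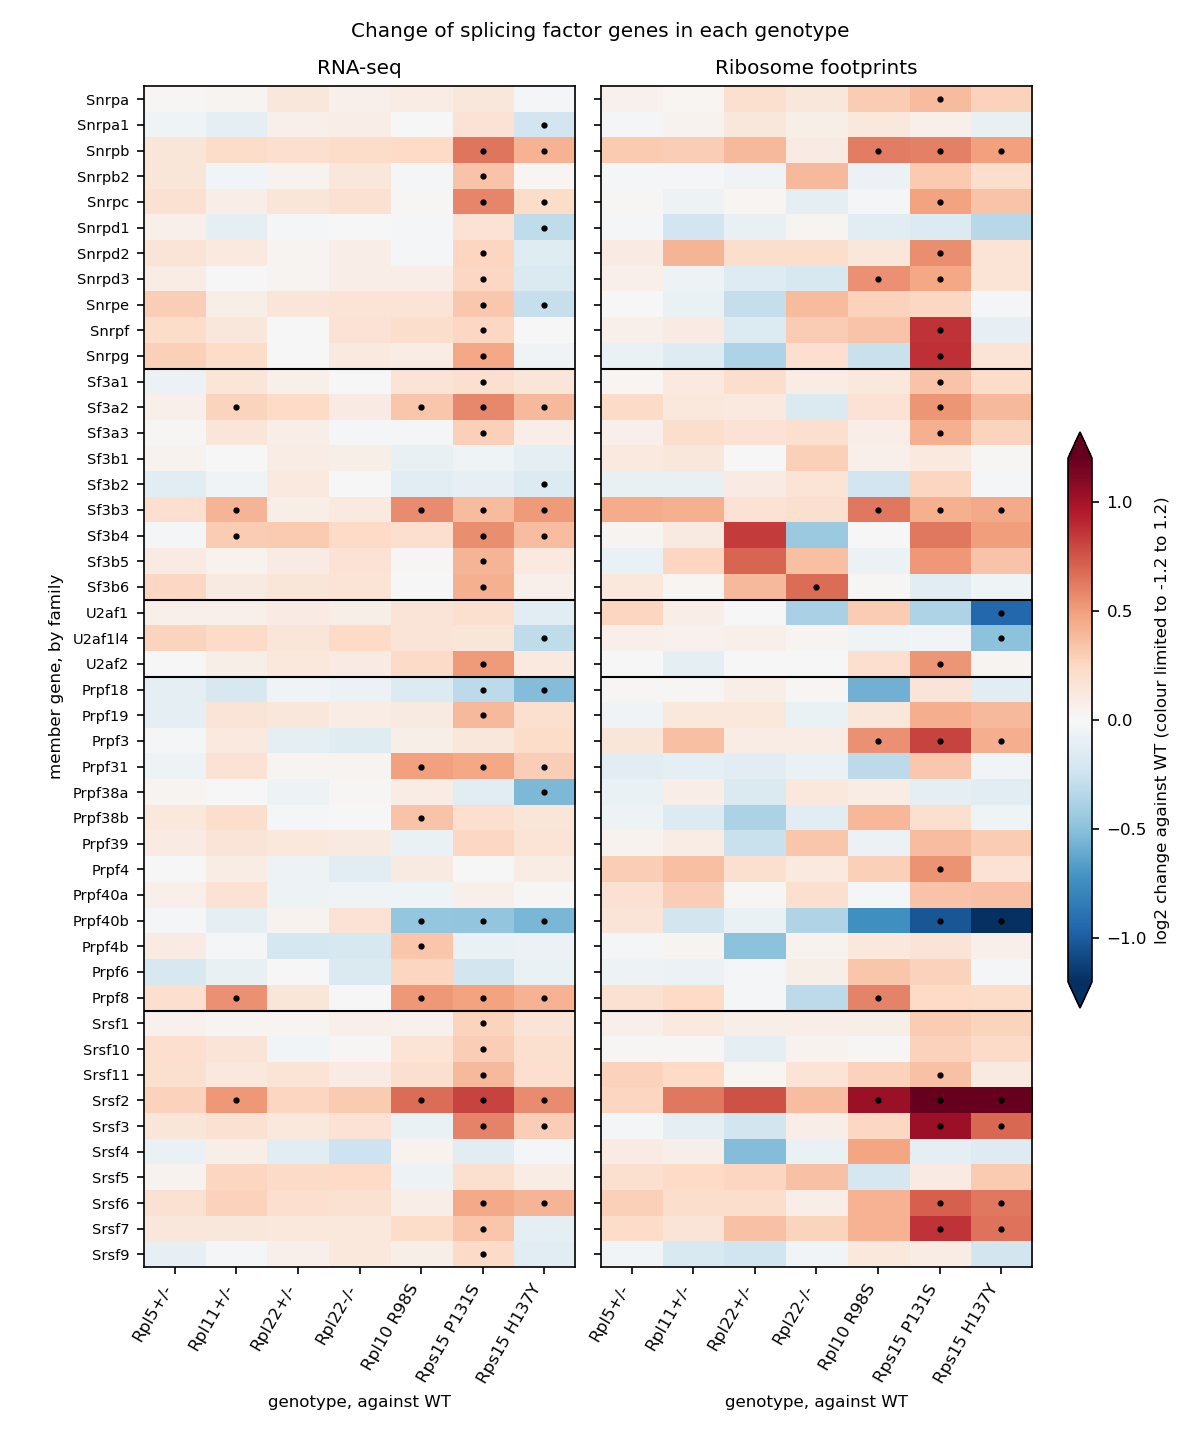
Log2 change of the 46 tested members against WT in 7 mutant genotypes, RNA on the left and footprints on the right, grouped by family; colour runs from -1.2 to 1.2 and black dots mark an adjusted p under 0.05. The column of Rps15 P131S holds 29 dots in RNA and 20 in footprints, that of H137Y 18 and 10.

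The shift in P131S was present in each of its clones and largest in clone 20. The median of all members lay 0.21, 0.18 and 0.42 above the WT mean in clones 24, 63 and 20. By family, Srsf genes lay 0.22, 0.21 and 0.57 above in the same order and Sf3 genes 0.27, 0.35 and 0.48, while Prpf genes were at -0.10, 0.00 and 0.23. Members called in P131S numbered 20 to 31 when 1 clone was left out, 20 of them without clone 20. In H137Y the clones disagreed for the Snrp genes, at -0.05, -0.29 and 0.06 in clones 16, 6 and 2. Medians over all genes lay between -0.14 and 0.03 in every clone of every genotype and assay.

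**Figure D2:**
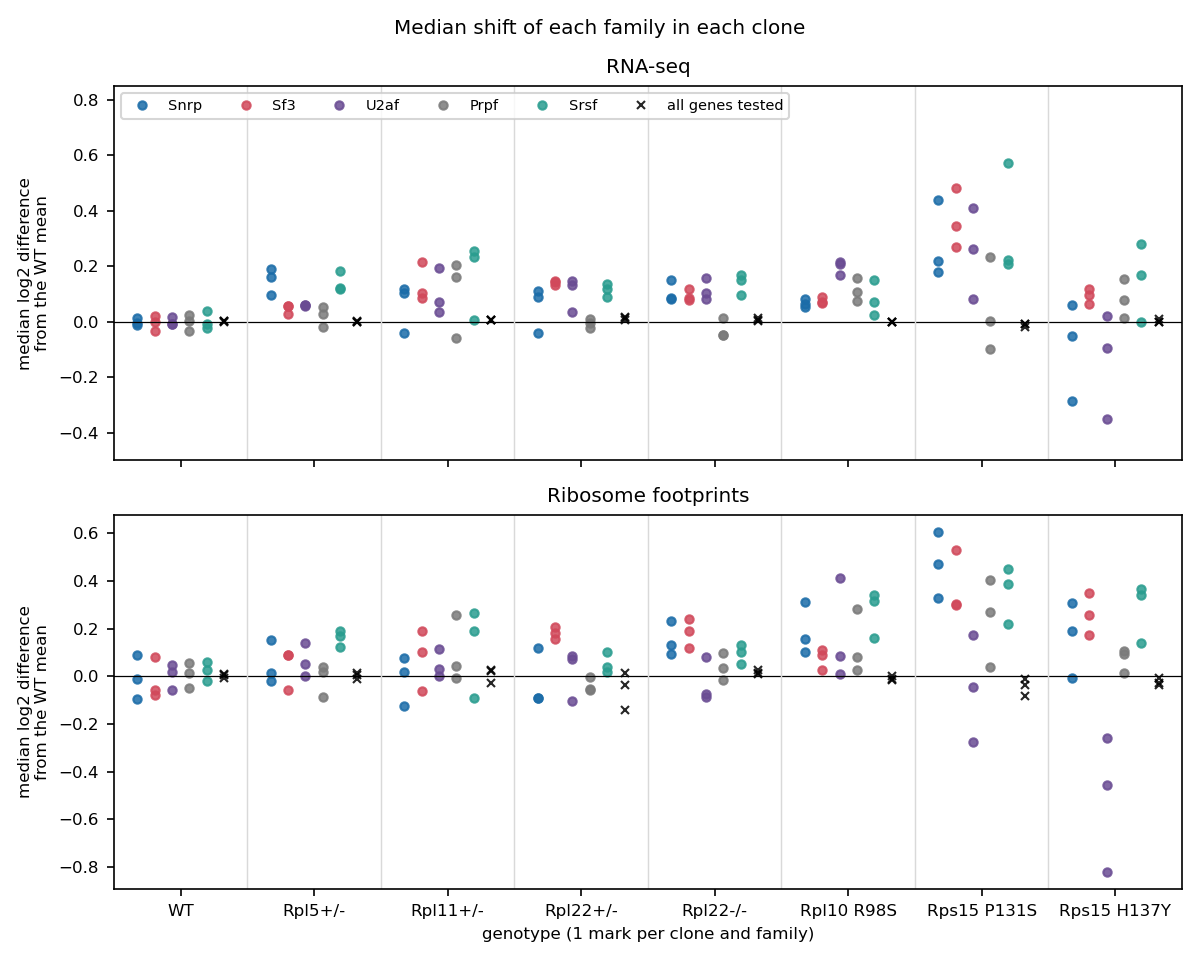
Median log2 difference from the WT mean for each family (coloured points) and for all genes tested (crosses), 1 mark per clone, with RNA above and footprints below. In P131S the Snrp, Sf3 and Srsf points lie above 0 in all 3 clones and in both assays, and U2af footprints in H137Y lie below 0 in all 3 clones, at -0.26, -0.82 and -0.46.

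Among the Snrp genes, 8 of 11 rose in P131S RNA and none fell (23.7% and 23.4% of all genes), with values from 0.14 to 0.64. Snrpb, which encodes the SmB and SmB' ring proteins, was at 243, 234 and 219 CPM in the WT clones, 390, 345 and 353 in P131S and 337, 325 and 265 in H137Y. All clones of both mutants lay above all WT clones. P131S showed a change of 0.64 (SE 0.08, adjusted p 2.59e-06) and H137Y one of 0.41 (SE 0.08, adjusted p 0.000329). The 2 mutants differed by 0.23 (adjusted p 0.039). That difference was lost without P131S clone 20 or H137Y clone 6 (0.13 at the lowest) and with only the 2 genotypes fitted. Snrpc, a U1 protein that helps hold the 5' splice site, was at 90.3, 86.9 and 82.5 CPM in WT, 140, 129 and 121 in P131S and 101, 109 and 91.9 in H137Y. It rose by 0.59 in P131S (SE 0.07, adjusted p 1.93e-06) and by 0.22 in H137Y (adjusted p 0.0188), the latter call lost without H137Y clone 2 or WT clone 3 (0.16 at the lowest).

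In the fit over all genotypes, RNA of the small Sm proteins separated the 2 Rps15 mutants. Snrpe, which encodes SmE, was at 207, 227 and 227 CPM in WT, 320, 255 and 254 in P131S and 183, 207 and 153 in H137Y. P131S lay wholly above WT, while 1 H137Y clone reached the lowest WT clone. Snrpe rose by 0.33 in P131S (adjusted p 0.00646, lost without clone 20, at 0.20) and fell by 0.28 in H137Y (adjusted p 0.0195, -0.18 and not called without H137Y clone 6, and not called without WT clone 2 or 3). The difference between the mutants was 0.61 (SE 0.09, adjusted p 9.72e-05). Snrpd1, for SmD1, fell by 0.30 in H137Y (adjusted p 0.0124, lost without H137Y clone 6 or WT clone 2) and had 0.18 in P131S (adjusted p 0.13), a difference of 0.48 between them (adjusted p 0.000843). Snrpg, Snrpd2, Snrpd3 and Snrpb2 also rose in P131S, at 0.46, 0.26, 0.25 and 0.34, and differed between the mutants by 0.50, 0.40, 0.43 and 0.32. The P131S calls of Snrpd2 and Snrpd3 were lost without clone 20 (0.19 and 0.14). Snrpa1, which encodes the U2 protein A', fell by 0.23 in H137Y, and that call was lost in 5 of 6 leave-one-out fits. Snrpa, for the U1 protein A, had 0.14 in P131S RNA (adjusted p 0.13). In all, 9 of 11 Snrp genes were higher in P131S than in H137Y, with a median of 0.40, where 12.6% of all genes were higher. With only the 2 Rps15 genotypes fitted, none of these RNA differences between the mutants was called, beside 3.13% of all genes. Several of these short genes have near-identical processed copies elsewhere in the genome, and how shared reads were assigned is not given in the sources used here, so their levels are uncertain to that extent.

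In footprints 7 of 11 Snrp genes rose in P131S, 2 in Rpl10 R98S and 1 in H137Y, where 8.42%, 0.814% and 5.22% of all genes rose. Snrpb footprints were at 229, 215 and 245 CPM in WT, 376, 348 and 322 in P131S, 333, 330 and 308 in H137Y and 365, 329 and 362 in Rpl10 R98S. Every mutant clone of these 3 genotypes lay above every WT clone. The changes were 0.60 (adjusted p 0.000379), 0.50 (adjusted p 0.00241) and 0.62 (adjusted p 0.0028), each kept in every leave-one-out fit. In Rpl10 R98S the Snrpb RNA change was 0.24 (adjusted p 0.052). Snrpg, for SmG, had 296, 372 and 266 footprint CPM in WT and 589, 474 and 648 in P131S, a rise of 0.87 (SE 0.20, adjusted p 0.00546). Snrpf, for SmF, rose by 0.86 in P131S footprints (adjusted p 0.0122) and was 0.96 higher there than in H137Y (adjusted p 0.0192). That difference was lost in 4 of 6 leave-one-out fits, without P131S clone 63 or 20 or H137Y clone 6 or 2 (0.82 at the lowest), and with only the 2 genotypes fitted. Without P131S clone 20 the rise over WT was no longer called; the same held without WT clone 1 or 3, with adjusted p up to 0.0608.

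Among the Sf3 genes, 7 of 9 rose in P131S RNA and 3 rose in H137Y, where 23.7% and 21% of all genes rose. Sf3b3, the large scaffold of the SF3B complex (chr8:110810491-110846806, GRCm38.p6), was at 196, 194 and 188 CPM in WT, 294, 270 and 205 in Rpl11+/-, 298, 276 and 283 in Rpl10 R98S, 269, 232 and 251 in P131S and 284, 263 and 276 in H137Y. All 12 clones of these 4 mutants lay above all WT clones. The changes were 0.41 (adjusted p 0.00509), 0.57 (adjusted p 0.000329), 0.38 (adjusted p 0.00133) and 0.51 (adjusted p 0.000109), each with an SE of 0.09. The Rpl11+/- call was lost with only the 2 genotypes fitted. In footprints Sf3b3 rose by 0.64 in Rpl10 R98S (adjusted p 0.00655), 0.43 in P131S (adjusted p 0.0125) and 0.45 in H137Y (adjusted p 0.0122). The P131S footprint call was lost without clone 20 (0.37), and the H137Y call without H137Y clone 2 or WT clone 2 (0.36 at the lowest).

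Sf3a2, a subunit of the SF3A trimer, was at 59.2, 55.3 and 54.1 CPM of RNA in WT, 96.6, 79.1 and 76.2 in P131S and 77.5, 71.1 and 72.3 in H137Y. The P131S rise was 0.58 (SE 0.07, adjusted p 2.95e-06), that of H137Y 0.39 (adjusted p 0.000246), with no overlap with WT. Sf3b4, which contacts RNA near the branch site, rose by 0.56 in P131S RNA (adjusted p 7.55e-05) and 0.37 in H137Y (adjusted p 0.00375). Its footprint change in P131S was 0.63 with an SE of 0.31 (adjusted p 0.19), with clones from 47.1 to 105 CPM. Sf3b6, the small subunit that touches the branch-point adenosine, and Sf3b5 rose in P131S RNA by 0.43 and 0.41 and were 0.37 and 0.29 higher than in H137Y. With only the Rps15 genotypes fitted, neither difference from H137Y was called. Sf3a1 and Sf3a3 rose by 0.19 and 0.29 in P131S; the Sf3a1 call was lost in 4 of 6 leave-one-out fits and that of Sf3a3 without P131S clone 20 or WT clone 3 (0.17 at the lowest).

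Sf3b1, the branch-site clamp and the member of this family that is mutated in leukaemia, was called nowhere. Its RNA was at 386, 382 and 399 CPM in WT, 365, 367 and 393 in P131S and 359, 337 and 379 in H137Y. The values were -0.05 and -0.12 on the log2 scale. Sf3b2, the partner of Sf3b4, fell by 0.16 in H137Y RNA (adjusted p 0.0214), a call lost without H137Y clone 2 or WT clone 2 (-0.10).

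Of the U2AF genes, U2af2, which encodes the subunit that binds the polypyrimidine tract, rose in P131S at both levels. Its RNA was at 272, 298 and 275 CPM in WT, 478, 355 and 373 in P131S and 322, 306 and 288 in H137Y. P131S lay wholly above both other groups. The change was 0.51 in P131S (SE 0.08, adjusted p 4.6e-05), and P131S was 0.40 above H137Y (adjusted p 0.00157, lost with only the 2 genotypes fitted). In footprints it rose by 0.53 (adjusted p 0.00795, not called without clone 20, at 0.34) and was 0.50 above H137Y (adjusted p 0.0338). This difference was lost in 4 of 6 leave-one-out fits, without P131S clone 63 or 20 or H137Y clone 6 or 2 (0.33 at the lowest), and with only the 2 genotypes fitted.

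U2af1, the subunit that reads the AG at the intron's end, fell in H137Y footprints and was not called in H137Y RNA. Its RNA was at 142, 145 and 142 CPM in WT and at 134, 145 and 112 in H137Y, with overlapping clones and a value of -0.13 (adjusted p 0.24). Its footprints were at 243, 197 and 287 CPM in WT, 138, 128 and 114 in H137Y and 261, 149 and 152 in P131S. All H137Y clones lay below all WT clones, whereas 1 P131S clone lay within the WT range. Footprints fell by 0.94 in H137Y (SE 0.19, adjusted p 0.00276, called in every leave-one-out fit) and had -0.37 in P131S (adjusted p 0.19). U2af1l4, a paralog of U2af1, fell in H137Y at both levels, by 0.30 in RNA (19.6, 18.6 and 19.3 CPM in WT, 15.8, 15.8 and 15.0 in H137Y, adjusted p 0.0121) and by 0.49 in footprints (adjusted p 0.032, lost in 5 of 6 leave-one-out fits).

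The SR protein genes held the largest changes, and 8 of 10 tested rose in P131S RNA with none falling (23.7% and 23.4% of all genes). Srsf2 (ENSMUSG00000034120, chr11:116849897-116853675), the SR protein also called SC35, was at 319, 350 and 301 CPM of RNA in WT. It was at 666, 506 and 533 in P131S, 509, 517 and 416 in H137Y, 541, 504 and 497 in Rpl10 R98S and 553, 483 and 360 in Rpl11+/-. Every clone of these 4 genotypes lay above every WT clone. The changes were 0.81 (SE 0.12, adjusted p 2.3e-05), 0.57 (adjusted p 0.000881), 0.67 (adjusted p 0.00133) and 0.52 (adjusted p 0.00872). The first 3 were kept in every leave-one-out fit and under the 5 other settings of the RNA fit; the Rpl11+/- call was lost without Rpl11+/- clone 22 or WT clone 3 (0.38 at the lowest) and with only the 2 genotypes fitted. The difference between P131S and H137Y was 0.24 (SE 0.12, adjusted p 0.16).

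Srsf2 footprints moved further. They were at 205, 176 and 206 CPM in WT, 763, 477 and 493 in P131S, 628, 535 and 605 in H137Y and 388, 421 and 391 in Rpl10 R98S. All 9 mutant clones lay above all WT clones. The rise was 1.56 in P131S (SE 0.25, adjusted p 0.000278), 1.59 in H137Y (SE 0.25, adjusted p 0.000351) and 1.03 in Rpl10 R98S (SE 0.24, adjusted p 0.0347). The 2 Rps15 calls held in every leave-one-out fit, while that of Rpl10 R98S was lost in all 6, with values from 0.97 to 1.07. In Rpl11+/- the clones were at 467, 266 and 176 CPM, a range that includes WT levels (0.63, adjusted p 0.36).

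Srsf3, the smallest SR protein and one that also serves mRNA export, was at 466, 502 and 474 CPM of RNA in WT, 871, 657 and 652 in P131S and 565, 640 and 565 in H137Y. The 3 groups did not overlap. P131S rose by 0.60 (SE 0.09, adjusted p 1.83e-05) and H137Y by 0.29 (SE 0.09, adjusted p 0.0108, not called without H137Y clone 2, at 0.23). The mutants differed by 0.30 (adjusted p 0.0158). That difference was lost without P131S clone 20 or H137Y clone 16 (0.15 at the lowest) and with only the 2 genotypes fitted. Its footprints were at 305, 327 and 292 CPM in WT, 597, 621 and 668 in P131S and 605, 533 and 351 in H137Y. They rose by 1.03 (SE 0.15, adjusted p 0.000184) and 0.69 (SE 0.15, adjusted p 0.00544), the H137Y call being lost with only the 2 genotypes fitted.

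Srsf7, the SR protein with a zinc knuckle, differed between the assays. Its RNA was at 203, 216 and 206 CPM in WT, 319, 231 and 238 in P131S and 192, 218 and 166 in H137Y. The RNA rose by 0.33 in P131S (adjusted p 0.0102, not called without clone 20, at 0.16) and had -0.12 in H137Y (adjusted p 0.38). Its footprints were at 289, 294 and 305 CPM in WT, 647, 482 and 490 in P131S and 471, 490 and 431 in H137Y, so that both mutants lay wholly above WT. They rose by 0.87 (SE 0.11, adjusted p 3.87e-05) and 0.65 (SE 0.11, adjusted p 0.000575), and both calls held in every leave-one-out fit.

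Srsf6 also rose at both levels in both mutants. Its footprints were at 164, 168 and 140 CPM in WT, 302, 229 and 245 in P131S and 257, 254 and 221 in H137Y, with rises of 0.71 (adjusted p 0.000547) and 0.63 (adjusted p 0.00212). Its RNA rose by 0.46 in P131S (adjusted p 0.00644) and by 0.40 in H137Y (adjusted p 0.0166), although H137Y clone 6 lay within the WT range. The P131S RNA call was lost without clone 20 (0.32), that of H137Y without H137Y clone 16 or 2 or WT clone 3 (0.28 at the lowest). Srsf9, Srsf10 and Srsf11 rose in P131S RNA by 0.23, 0.30 and 0.39, and Srsf11 by 0.35 in footprints. Without clone 20 the Srsf10 RNA call and the Srsf11 footprint call were lost (0.13 and 0.31), and that of Srsf10 also without WT clone 1 or 3. Srsf1, the founding SR protein, rose by 0.26 in P131S RNA (adjusted p 0.0442), but this call was lost in 4 of 6 leave-one-out fits and came to 0.09 without clone 20. Srsf4 and Srsf5 were called in no genotype at the RNA or the footprint level.

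**Figure D3:**
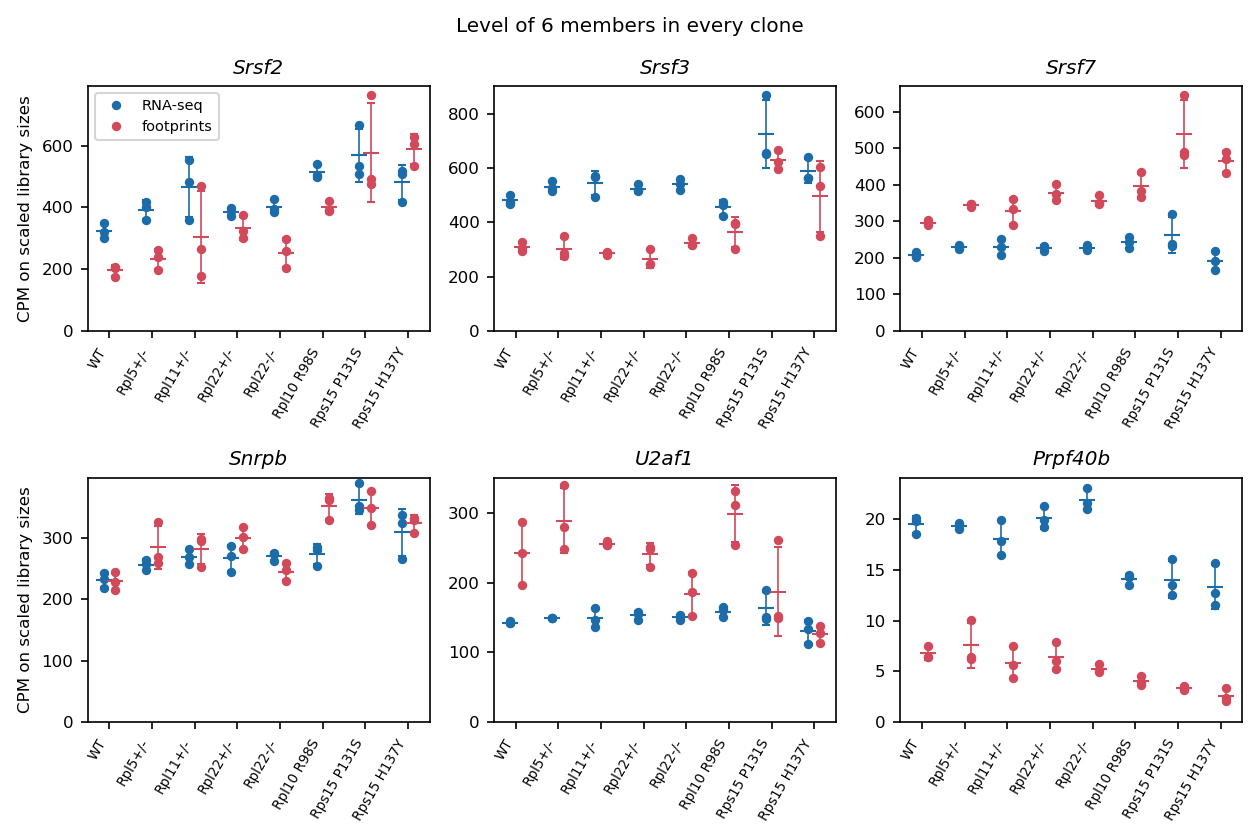
CPM of Srsf2, Srsf3, Srsf7, Snrpb, U2af1 and Prpf40b in RNA and footprints of all 8 genotypes on linear axes from 0, with points for clones and bars for the mean with its SD. Srsf2 footprints of the 2 Rps15 genotypes lie between 477 and 763 CPM, against 176 to 206 in WT.

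The Prpf genes moved in both directions. In P131S RNA 3 of 13 rose and 2 fell (median 0.06), in H137Y 2 rose and 3 fell (0.09), and in Rpl10 R98S 4 rose and 1 fell. Of all genes 23.7% rose and 23.4% fell in P131S, 21% and 20% in H137Y and 6.82% and 6.03% in Rpl10 R98S. Prpf8, the core protein of the U5 snRNP, was at 185, 173 and 172 CPM in WT, 283, 280 and 214 in Rpl11+/-, 273, 235 and 253 in Rpl10 R98S, 271, 204 and 265 in P131S and 228, 202 and 275 in H137Y. All 12 mutant clones lay above all WT clones. It rose by 0.55 (adjusted p 0.00547), 0.52 (adjusted p 0.00674), 0.48 (adjusted p 0.0023) and 0.41 (adjusted p 0.00821), each with an SE of 0.12; only the H137Y call was lost when 1 clone was left out (clone 6, 0.28). In footprints Prpf8 rose by 0.59 in Rpl10 R98S (adjusted p 0.0149, lost in 4 of 6 leave-one-out fits).

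Prpf31 and Prpf3 belong to the U4/U6 part of the tri-snRNP. Prpf31 RNA was at 113, 119 and 111 CPM in WT, 170, 152 and 160 in Rpl10 R98S, 184, 139 and 149 in P131S and 136, 132 and 153 in H137Y, with no mutant clone as low as WT. It rose by 0.49 (adjusted p 0.0027), 0.46 (adjusted p 0.00068) and 0.29 (adjusted p 0.0217, lost without H137Y clone 6 or WT clone 1 or 3, 0.22 at the lowest). Prpf3 changed in footprints: 43.6, 44.5 and 44.4 CPM in WT, 83.0, 75.3 and 73.7 in P131S, 70.6, 61.2 and 47.4 in H137Y and 68.9, 58.3 and 65.9 in Rpl10 R98S. It rose by 0.81 in P131S (SE 0.13, adjusted p 0.000341), 0.44 in H137Y (adjusted p 0.0326) and 0.54 in Rpl10 R98S (adjusted p 0.0366). The last 2 calls were lost in 5 and in all 6 of the leave-one-out fits. Prpf4, a partner of Prpf3, rose by 0.54 in P131S footprints (adjusted p 0.0472, 0.25 without clone 20, and lost without any WT clone). Prpf19, a ubiquitin ligase of the activated spliceosome, rose by 0.39 in P131S RNA (adjusted p 0.00106). In Rpl10 R98S RNA the kinase gene Prpf4b rose by 0.33 (adjusted p 0.00675) and Prpf38b by 0.34 (adjusted p 0.0477, lost in all 6 leave-one-out fits).

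Prpf40b, a homolog of the yeast U1 factor Prp40, was the member with the largest fall. Its RNA was at 20.1, 19.8 and 18.5 CPM in WT, 14.5, 14.3 and 13.5 in Rpl10 R98S, 12.6, 16.1 and 13.5 in P131S and 12.7, 15.7 and 11.5 in H137Y. All 9 mutant clones lay below WT. RNA fell by 0.46 (adjusted p 0.00594), 0.47 (adjusted p 0.000895) and 0.55 (adjusted p 0.000263). Footprints were at 7.51, 6.42 and 6.43 CPM in WT, 3.17, 3.28 and 3.55 in P131S and 3.33, 2.08 and 2.43 in H137Y, again without overlap. P131S footprints fell by 1.02 (SE 0.26, adjusted p 0.0086), those of H137Y by 1.38 (SE 0.26, adjusted p 0.00168), and all 5 of these calls held in every leave-one-out fit. The P131S footprint call was lost without the low-count filter. In Rpl10 R98S the footprint value was -0.74 (adjusted p 0.16).

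Prpf18, a factor of the second splicing step, had RNA at 54.1, 53.7 and 55.8 CPM in WT, 44.3, 43.5 and 43.8 in P131S and 35.7, 33.8 and 44.5 in H137Y. It fell by 0.31 (adjusted p 0.00293) and 0.52 (adjusted p 3.23e-05), without overlap with WT. Prpf38a, needed for activation of the assembled spliceosome, fell in H137Y, from 65.4, 63.0 and 67.1 CPM to 42.0, 44.1 and 48.3 (-0.54, adjusted p 0.000156). P131S was 0.41 above H137Y (adjusted p 0.00349, lost with only the 2 genotypes fitted). Neither gene was called in footprints.

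At the footprint level 19 members rose and 1 fell in P131S, where 8.42% of all 16217 tested genes rose and 8.28% fell (16.7%). The member median was 0.34, beside -0.04 over all genes, and 39 of 46 values were positive. In H137Y 7 rose and 3 fell, where 5.22% rose and 6.44% fell (11.7%), with a median of 0.17. Rpl10 R98S had 6 higher and none lower, beside 0.814% and 0.808% of all genes (1.62%). P131S was higher than H137Y for Snrpf and U2af2 and lower for no member (2.23% and 1.94% of all genes, 4.17% together). Sf3b6 was the one member called in Rpl22-/- (0.074% of all genes higher, 0.0308% lower, 0.105% together). Its footprints were at 277, 224 and 229 CPM in WT and 436, 378 and 350 in Rpl22-/-, a rise of 0.67 (SE 0.12, adjusted p 0.0256) that was lost in 4 of 6 leave-one-out fits, among them the fit without Rpl22-/- clone 30, and with only the 2 genotypes fitted.

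No member was called in footprints by edgeR in Rpl5+/- (0.0123% of all genes), Rpl11+/- (0.074%) or Rpl22+/- (0.253%). At an unadjusted p under 0.05 were 4, 8 and 9 of the 46 members, beside 667, 1601 and 2223 of all 16217 genes. DESeq2 called 1, 1 and 5 members in these genotypes (0.284%, 1.48% and 2.5% of all genes) and limma voom none. The P131S count was 10 without clone 20 and 13 with only the 2 genotypes fitted (15.7% of all genes). The Rpl10 R98S count was 2 to 4 with any 1 clone left out. All members called at both levels had the same direction in both: 17 in P131S, 7 in H137Y and 3 in Rpl10 R98S, which are Srsf2, Sf3b3 and Prpf8. The same count over all genes was not made, so this agreement cannot be called particular to the members.

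**Figure D4:**
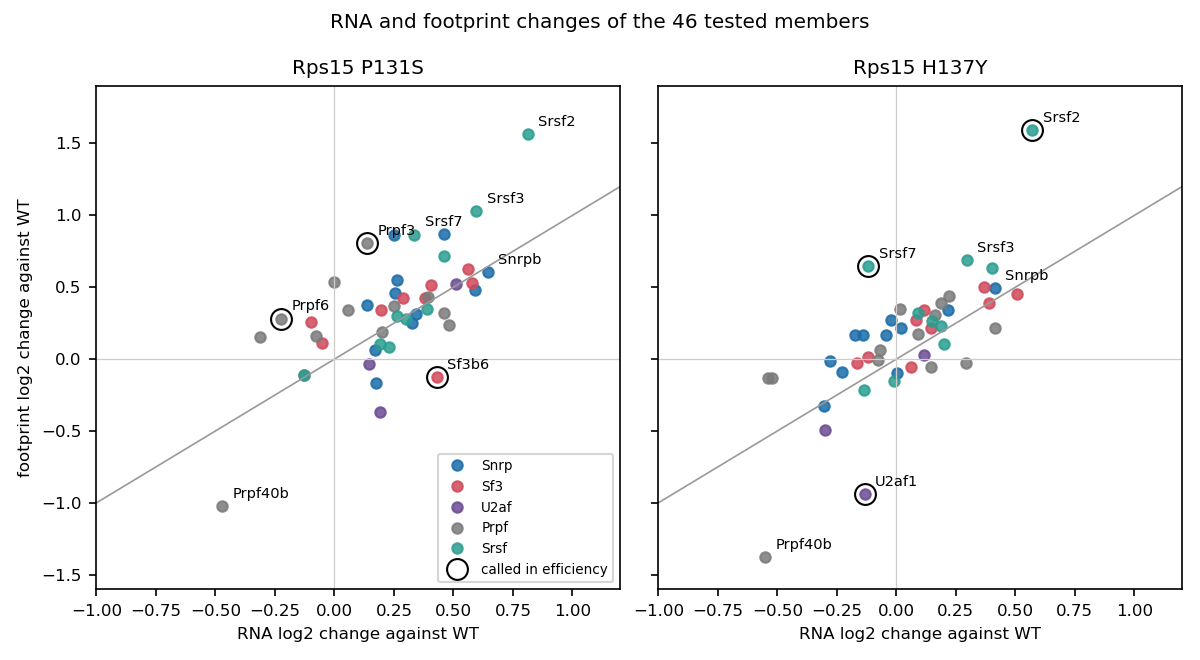
RNA change (x axis) against footprint change (y axis), both log2, of the 46 tested members in P131S and H137Y, coloured by family, with a grey line of equal change and circles around members called in translation efficiency. Srsf2 lies at 0.81 and 1.56 in P131S and at 0.57 and 1.59 in H137Y, and Prpf40b lies lowest in both panels.

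Translation efficiency, the footprint change beyond the RNA change, was tested as an interaction over all 48 libraries. Few members were called. In P131S 2 rose and 1 fell, where 0.881% of all 16568 tested genes rose and 2.26% fell (3.14%), and in H137Y 2 rose and 1 fell, where 0.61% rose and 2.15% fell (2.76%). In Rpl10 R98S none rose and 1 fell, beside 0.0543% and 0.163% (0.217%). No member was called by edgeR in Rpl5+/- or Rpl11+/- (0% of all genes in each), Rpl22+/- (0.00604%), Rpl22-/- (0.0121%) or between the Rps15 mutants (0.682%). At an unadjusted p under 0.05 were 0, 1, 3, 5 and 6 of the 46 members, beside 450, 637, 1320, 832 and 1895 of all 16568 genes. DESeq2 and limma voom called no member in these comparisons either. No member was called in both Rps15 mutants. With the clone as a block, which takes each clone's footprint library against its own RNA library, the P131S count was 6 (4 higher, 2 lower), beside 4.86% of all genes. Srsf2, Srsf7 and U2af1 then joined the 3 P131S members below, with values of 0.71 (adjusted p 0.019), 0.51 (adjusted p 0.00262) and -0.61 (adjusted p 0.0181). Since the block also kept their H137Y calls, these 3 members were called in both Rps15 mutants under it.

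Srsf7 had the firmest call. Its footprint CPM divided by its RNA CPM was 1.42, 1.36 and 1.48 in WT, 2.45, 2.25 and 2.6 in H137Y and 2.03, 2.09 and 2.06 in P131S. Both mutants lay wholly above WT. The efficiency rose by 0.75 in H137Y (SE 0.15, adjusted p 0.00278, kept in every leave-one-out fit) and had 0.51 in P131S (adjusted p 0.051, 0.0109 by DESeq2, 0.0384 by limma voom and 0.0385 with RLE scaling). The Srsf2 ratio was 0.641, 0.501 and 0.683 in WT, 1.23, 1.03 and 1.46 in H137Y and 1.15, 0.942 and 0.926 in P131S. It rose by 1.00 in H137Y (SE 0.28, adjusted p 0.0381, lost in 5 of 6 leave-one-out fits and without the low-count filter) and had 0.73 in P131S (adjusted p 0.16).

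U2af1 fell in efficiency in H137Y. Its ratio was 1.71, 1.36 and 2.02 in WT, 1.03, 0.884 and 1.01 in H137Y and 1.38, 1.01 and 1.00 in P131S. H137Y lay wholly below WT (-0.82, SE 0.21, adjusted p 0.0224, lost in 5 of 6 leave-one-out fits), while 1 P131S clone lay within the WT range (-0.58, adjusted p 0.13). In P131S the ratio of Prpf3 was 1.98, 2.28 and 2.26 against 1.34, 1.29 and 1.44 in WT (0.65, adjusted p 0.0148). That of Prpf6, another tri-snRNP protein, was 4.70, 4.04 and 3.90 against 3.06, 3.05 and 2.78 (0.48, adjusted p 0.0492). The ratio of Sf3b6 fell, at 1.13, 1.42 and 1.36 against 2.17, 1.73 and 1.8 (-0.58, adjusted p 0.0145), with higher RNA and a footprint value of -0.13. These 3 calls were lost in 3, 5 and 4 of 6 leave-one-out fits, those of Prpf3 and Prpf6 also without the low-count filter and that of Prpf6 in limma voom, and the count of members called in P131S was 0 without WT clone 1 or 2 and 1 without WT clone 3.

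Prpf31 fell in efficiency in Rpl10 R98S, with RNA up and footprints not. Its footprints were at 218, 224 and 235 CPM in WT and 206, 168 and 171 in Rpl10 R98S, and its ratio was 1.93, 1.88 and 2.12 against 1.21, 1.11 and 1.07. The groups did not overlap in the ratio. The change was -0.82 (SE 0.16, adjusted p 0.00884), called under all 6 other settings of this fit and lost in 5 of 6 leave-one-out fits.

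**Figure D5:**
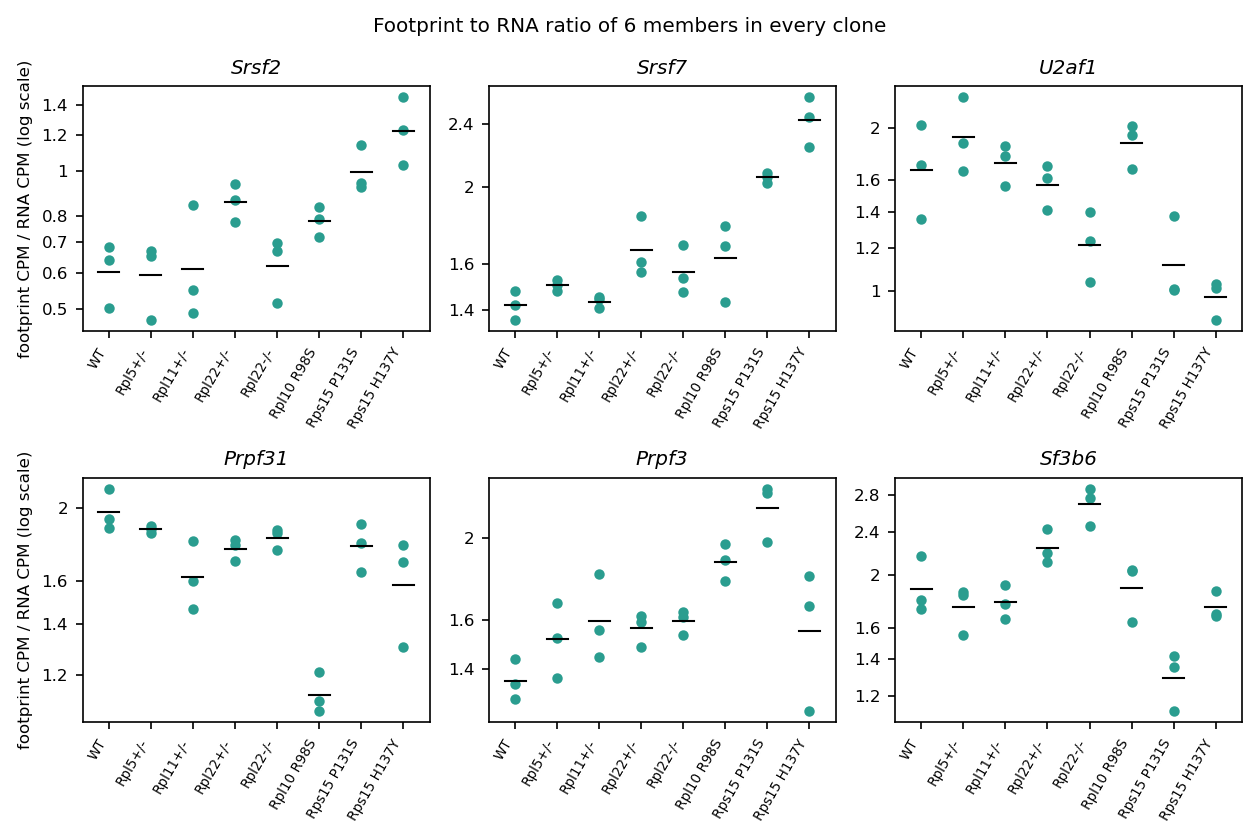
Footprint CPM divided by RNA CPM on a log axis for Srsf2, Srsf7, U2af1, Prpf31, Prpf3 and Sf3b6 in every clone, with a line at the geometric mean of each genotype. Srsf7 in H137Y lies at 2.25 to 2.6 against 1.36 to 1.48 in WT, and Prpf31 in Rpl10 R98S at 1.07 to 1.21 against 1.88 to 2.12.

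Other genes of the splicing machinery, from lists that the symbol rule did not use, were counted the same way. Of 67 other core spliceosome genes, 30 rose and 7 fell in P131S RNA (median 0.10) and 17 rose and 14 fell in H137Y (0.03), where 23.7% and 23.4% of all genes rose and fell in P131S and 21% and 20% in H137Y. In footprints 28 rose and 1 fell in P131S (0.32) and 12 rose and 1 fell in H137Y (0.10), beside 8.42% and 8.28% of all genes in P131S and 5.22% and 6.44% in H137Y. In efficiency 2 of the 67 rose and none fell in each of these mutants, where 0.881% of all genes rose in P131S and 0.61% in H137Y. Lsm8, of the Lsm ring that binds U6 snRNA, rose in efficiency in P131S and H137Y, by 0.77 and 0.75. It was picked after the values were seen, and its calls were not followed with clones left out. Of 13 genes that assemble and import the Sm ring, 8 rose and 1 fell in P131S RNA (median 0.37) and 4 rose and 2 fell in H137Y. Of 20 hnRNP genes 13 rose and 2 fell in P131S RNA, and 5 rose and 4 fell in H137Y, to be read against the same RNA shares of all genes.

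In RNA the kinases that phosphorylate SR proteins went the other way from the Srsf genes. Of 6 tested, 5 fell in P131S RNA (median -0.41) and all 6 fell in H137Y (median -0.43), with none rising, where 23.4% and 20% of all genes fell. Fewer were called in footprints: 2 of 6 fell in P131S (median -0.26) and 3 in H137Y (median -0.44), with none rising. Of all genes 8.28% and 6.44% fell there. Clk1 and Clk4, nuclear kinases of SR proteins, fell by 0.48 and 0.39 in P131S RNA and by 0.62 and 0.63 in H137Y. Their footprints fell by 0.73 and 0.66 in P131S and by 1.16 (adjusted p 0.000378) and 1.13 (adjusted p 0.000351) in H137Y. Srpk1 and Srpk2, which act in the cytoplasm before SR proteins are imported, fell by 0.43 and 0.61 in P131S RNA and by 0.32 and 0.47 in H137Y.

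Lists of mRNA surveillance differed between the mutants in count. Of 9 nonsense-mediated decay genes, 8 rose in H137Y RNA (median 0.30) and 4 in P131S, and none fell, where 21% and 23.7% of all genes rose. Of 8 exon junction complex genes, 5 rose in P131S RNA and none fell, while 3 fell in H137Y and none rose, where 20% of all genes fell. In the direct test 5 exon junction complex genes were higher in P131S than in H137Y and none lower (median 0.30), and 1 nonsense-mediated decay gene was higher and 3 lower (median -0.10), where 12.6% of all genes were higher in P131S and 12.6% lower.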

How the data were processed

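RNA-seq and ribosome footprint libraries of 24 Ba/F3 clones were analysed from 1 table of estimated counts per gene, deposited by the authors. The submitters' processing notes name STAR 2.6.1d, Salmon 1.4.0, DESeq2 1.30 and GRCm38, without roles, and strand and multi-mapping settings are not given in the sources used here. The deposited expected counts are partly fractional (88.54% of values were whole) and were rounded. Symbols came from the file for 32115 genes and from a gene name table for 23112, and 260 had none; members were taken by file symbols alone. Genomic positions and promoters are from RefSeq for GRCm38.p6.

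Counts were filtered (filterByExpr, minimum count 10, total 15), scaled by TMM within each assay (factors 0.913 to 1.061 for RNA, 0.877 to 1.079 for footprints) and fitted with edgeR 4.0.16 (quasi-likelihood test, R 4.3.3) over all 24 libraries of an assay, or all 48 for the interaction of genotype and assay that gives translation efficiency. The 8 comparisons were each mutant against WT and P131S against H137Y. P-values were adjusted by Benjamini-Hochberg over all genes tested, and SEs were derived from the test statistic. The fit was tested on simulated data, where the slope of estimates on known changes, weighted by their error, matched within that error. This criterion replaced a first one, on the median ratio of estimated to known change, which failed for the smallest efficiency change. The smallest changes were seldom called, above all in footprints and in efficiency. Simulated libraries were drawn independently, without the correlation between the 2 libraries of a clone, so the efficiency fit was not tested under it. An exact permutation of 3 against 3 clones cannot go below 0.1, so no single-gene permutation test was used. Alternatives were RLE scaling, DESeq2 1.42.0, limma 3.58.1 (voom), no low-count filter, only the 2 genotypes compared, each clone left out, and for efficiency the clone as a block.

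The clone number in the labels ties each footprint library to the RNA library of the same clone. Deviations from the genotype mean correlated within all 24 clones (0.226 to 0.696 over 8441 genes). Between different clones of a genotype the correlations ranged from -0.601 to 0.0539. Since deviations of the clones of a genotype cancel out by construction, the values between clones are pulled negative and give no separate contrast.

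Named were, per level, genotype, family and direction, up to 3 called members with the largest change, and 17 members whatever their values (Snrpb, Snrpn, Snrpa, Snrpc, Snrpd1, Sf3a1, Sf3b1, Sf3b4, Srsf1, Srsf2, Srsf3, Srsf7, Prpf8, Prpf19, Prpf31, U2af1 and U2af2). Per-clone values of more than 3 members of a family, and the other called members named, were chosen after their values were seen. The members, gene lists and marker lists were chosen with earlier results of these data known.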

Additional observations from a re-analysis of the deposited data

How the results depend on the processing

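No named member reversed its direction under any setting, and RLE scaling and limma voom left every count of called members within 1.5 times its value. DESeq2 called more in footprints, among the members and over all genes. It called 10 members in Rpl10 R98S (6 by edgeR), beside 4.55% of all genes (1.62% by edgeR). In P131S against H137Y it called 5 (2), beside 8.07% (4.17%). It also called 5 in Rpl22+/-, 1 in Rpl11+/- and 1 in Rpl5+/- (0 in each), beside 2.5%, 1.48% and 0.284%. In Rpl22+/- RNA it called 2 (0), beside 5.53% (3.9%), and in P131S efficiency 5 (3), beside 5.52% (3.14%). With only the 2 genotypes fitted, RNA counts were 21 in Rpl10 R98S (8), 18 in Rpl5+/-, 6 in Rpl22-/- and 5 in Rpl22+/- (0 in each). Those fits called 35.4%, 15.8%, 12% and 10.5% of all genes. RNA counts were 2 in Rpl11+/- (5), beside 7.12%, and 0 in P131S against H137Y (18), beside 3.13%. Footprint counts were 13 in P131S (20), 6 in H137Y (10), 0 in Rpl22-/- (1) and 0 in P131S against H137Y (2). The shares of all genes there were 15.7%, 10%, 0.358% and 0.243%. Without the low-count filter P131S efficiency had 1 call (3), beside 0.807% of all genes. Under the replicate block by clone and under the per-clone log ratio, which pairs the same libraries, P131S efficiency had 6 (3). The shares of all genes were 4.86% and 5.29%. The block gave 3 members in H137Y (3.83% of all genes), 1 in Rpl10 R98S (0.471%) and 0 elsewhere, the same member counts as without it. The cause was not tested for any of these moves.

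Leaving out each clone gave 10 to 26 footprint calls in P131S, 2 to 4 in Rpl10 R98S, 0 to 3 in Rpl11+/- (3 without clone 414), 0 to 1 in Rpl22-/- and 0 to 7 in P131S against H137Y (7 without P131S clone 24, 4 without H137Y clone 16, 0 without P131S clone 63 or 20 or H137Y clone 6 or 2). In RNA it gave 2 to 8 in Rpl11+/- (2 without clone 22 or WT clone 3, 8 without clone 414). In efficiency it gave 0 to 3 in P131S, 1 to 2 in H137Y and 0 to 1 in Rpl10 R98S. These are counts of members alone, without the shares of all genes called in the same fits. The called members followed are those of the naming rule above, which takes the largest changes, and not every called member. Of these, 14 of 18 in P131S RNA, 9 of 18 in H137Y RNA, 8 of 16 in P131S footprints and 6 of 9 in H137Y footprints were called in all 6 leave-one-out fits. The numbers were 6 of 7 in RNA and 2 of 6 in footprints of Rpl10 R98S, and 2 of 5 in Rpl11+/- RNA. In efficiency they were 0 of 3 in P131S, 1 of 3 in H137Y and 0 of 1 in Rpl10 R98S. With 3 clones a group, footprint depth and spread between clones limit small changes: the footprint SE of Srsf2 was 0.25, and its RNA SE 0.12.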
